A study of Mus musculus with 2 samples.

Results

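Non-cycling oligodendrocyte precursors were described in single-cell RNA sequencing data of the mouse ventral parafacial region, a part of the ventral medulla that holds neurons of the respiratory network and many glia. Of 12395 barcodes kept in the series, 1080 met the definition, 262 from untreated mice and 818 from mice given 4OH-tamoxifen. Barcodes were kept with at least 800 genes, at most 50 hemoglobin UMIs and at most 20% mitochondrial UMIs, a UMI being 1 counted RNA molecule. The cells were then selected on measured values: at least 3 UMIs in all of *Pdgfra*, *C1ql1* and *Cspg4*, at most 1 of *Top2a*, *Mki67*, *Cdk1* and *Hist1h2ap*, at most 2 of *Gpr17*, *Bmp4* and *Neu4*, at most 1 of *Mog* and *Mag*, 0 of *Dcn*, at most 2 of *C1qa*, *C1qb*, *Cldn5* and *Flt1*, and 0 of *Slc32a1* and *Slc17a6*. Because the values of these same cells chose them, every level below is a description, and no result was tested.

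Both libraries came from wild-type C57BL6/J mice that were 10 days old. The untreated library was batch 1 and pooled 8 mice, 4 male and 4 female. The 4OH-tamoxifen library was batch 2 and pooled 8 mice, also 4 male and 4 female, that received 0.2 mg of 4OH-tamoxifen, an estrogen receptor ligand, per day for 3 days. With 1 library per condition, the animals, the sexes and the spread between mice could not be separated, and the batch and the treatment cannot be told apart. Values of both libraries are therefore given side by side, and all intervals cover counting error only.

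Oligodendrocyte precursors are the dividing glia that give rise to myelinating oligodendrocytes, and they persist through life as a spaced population in grey and white matter. Their survival and division depend on platelet-derived growth factor, which binds the receptor encoded by *Pdgfra*. They also carry the proteoglycan NG2, encoded by *Cspg4*, receive synapses from neurons, and express the lineage factors *Olig1*, *Olig2* and *Sox10*. Commitment to differentiation passes through a short stage marked by *Gpr17*, *Bmp4* and *Neu4*.

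The precursors made up 7.83% of kept barcodes in the untreated library (exact binomial 95% interval 6.94 to 8.80) and 9.04% in the 4OH-tamoxifen library (8.46 to 9.65). They were shallower than the kept cells as a whole. Their median was 2974.5 UMIs and 1626 genes per cell in the untreated library and 1805 UMIs and 1072 genes in the 4OH-tamoxifen library, while all kept cells had medians of 3632 and 2466 UMIs. Of the 818 precursors of the 4OH-tamoxifen library 550 had fewer than 2000 UMIs, against 25 of 262 in the untreated library. When the definition was applied to cells thinned to 2000 UMIs, leaving out shallower cells, the shares were 8.37% and 4.29%, in the opposite order, so no order of the shares is read from these data. In all, 815796 and 1604717 UMIs were summed over precursors, and levels below are UMIs per 1000000 (CPM) of these sums. The libraries shared 40 barcode sequences, of which 0 and 4 were precursors.

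The steps of the definition show which cells it set aside. Of 755 untreated and 1639 4OH-tamoxifen barcodes with at least 3 UMIs of the 3 precursor genes, 94 and 225 were set aside for the cell cycle genes. The genes of committed cells removed the most in both libraries, 335 and 424. Myelin genes removed 31 and 85, *Dcn* 5 and 8, microglial and endothelial genes 20 and 36, and the transporters of inhibitory and excitatory neurons 8 and 43. Cells with too many cycle UMIs but otherwise within the definition form the cycling precursors used for comparison (37 and 145 cells). Non-cycling cells with 3 or more UMIs of *Gpr17*, *Bmp4* and *Neu4* that passed the same limits on other types form the committed precursors (380 and 1074 cells), whatever their precursor genes. Microglia, cells with at least 10 UMIs of *C1qa* and *C1qb* and without markers of other types (312 and 573 cells), served as the background, because they should lack precursor RNA.

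*Pdgfra* (chromosome 5, 75152292 to 75198215, plus strand, GRCm38) encodes the growth factor receptor that drives these cells, and its level in precursors was 853 CPM (untreated) and 922 CPM (4OH-tamoxifen). Pairs of values below keep this order of the libraries. In all other kept cells it was 66.7 and 62.4 CPM. *C1ql1* (chromosome 11, 102939264 to 102946688, minus strand) encodes a secreted C1q-like protein and stood at 1384 and 1331 CPM in precursors against 170 and 137 CPM in the other cells. These genes chose the cells, and the gaps follow from the choice. *Cspg4* (chromosome 9, 56865033 to 56899870, plus strand) was at 243 and 286 CPM in precursors and 28.9 and 25.0 CPM elsewhere. At least 1 *Pdgfra* UMI was found in 82.4% and 82.9% of the cells, a *C1ql1* UMI in 93.9% and 93.2%, and a *Cspg4* UMI in 47.7% and 42.5%. All 3 genes were found together in 38.5% and 29.6%, so most cells met the minimum without a UMI of every gene, and 28 and 66 cells met it through *C1ql1* alone.

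*Olig1* (chromosome 16, 91269772 to 91271933, plus strand), a helix-loop-helix factor of the oligodendrocyte lineage, is the marker that the definition did not use. Its level was 2051 and 1745 CPM in precursors, and 705 and 715 CPM in all other kept cells, many of which are oligodendrocytes. An *Olig1* UMI was found in 93.5% (89.8 to 96.2) and 94.5% (92.7 to 96.0) of precursors, and in 34.3% and 37.5% of microglia, whose median depths were 4065 and 2439 UMIs. Thinned to 2000 UMIs, the shares were 92.0% and 92.9% in precursors and 20.7% and 31.5% in microglia, so nearly all precursors held *Olig1* at a share far above this background. *Olig2* was at 686 and 564 CPM in precursors and *Sox10* at 308 and 277 CPM, against 17.2 and 50.6 CPM and 14.2 and 37.0 CPM in microglia. Only 14 untreated and 10 4OH-tamoxifen precursors had no UMI of *Olig1*, *Olig2* or *Sox10*. Most cells in both libraries thus held genes of the oligodendrocyte lineage. These genes bear on the lineage and do not by themselves show the precursor stage.

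The limit of 3 UMIs cut through a gradient. Cells with exactly 3 UMIs of the 3 genes (33 and 225) had *Olig1* at 998 and 1543 CPM, and otherwise equal cells with 2 UMIs (50 and 219), just outside, had 455 and 1318 CPM. *Cspg5*, a proteoglycan of precursors, was at 760 and 1308 CPM just inside and 383 and 1139 CPM just outside. *Olig2* was at 315 and 532 CPM inside and 257 and 389 CPM outside, and *Lhfpl3* at 304 and 491 CPM inside and 158 and 334 CPM outside. All 4 genes were thus lower just outside the limit in both libraries. An *Olig1* UMI was found in 72.7% and 92.0% of the cells just inside and in 48.0% and 87.7% of those just outside.

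**Figure D1:**
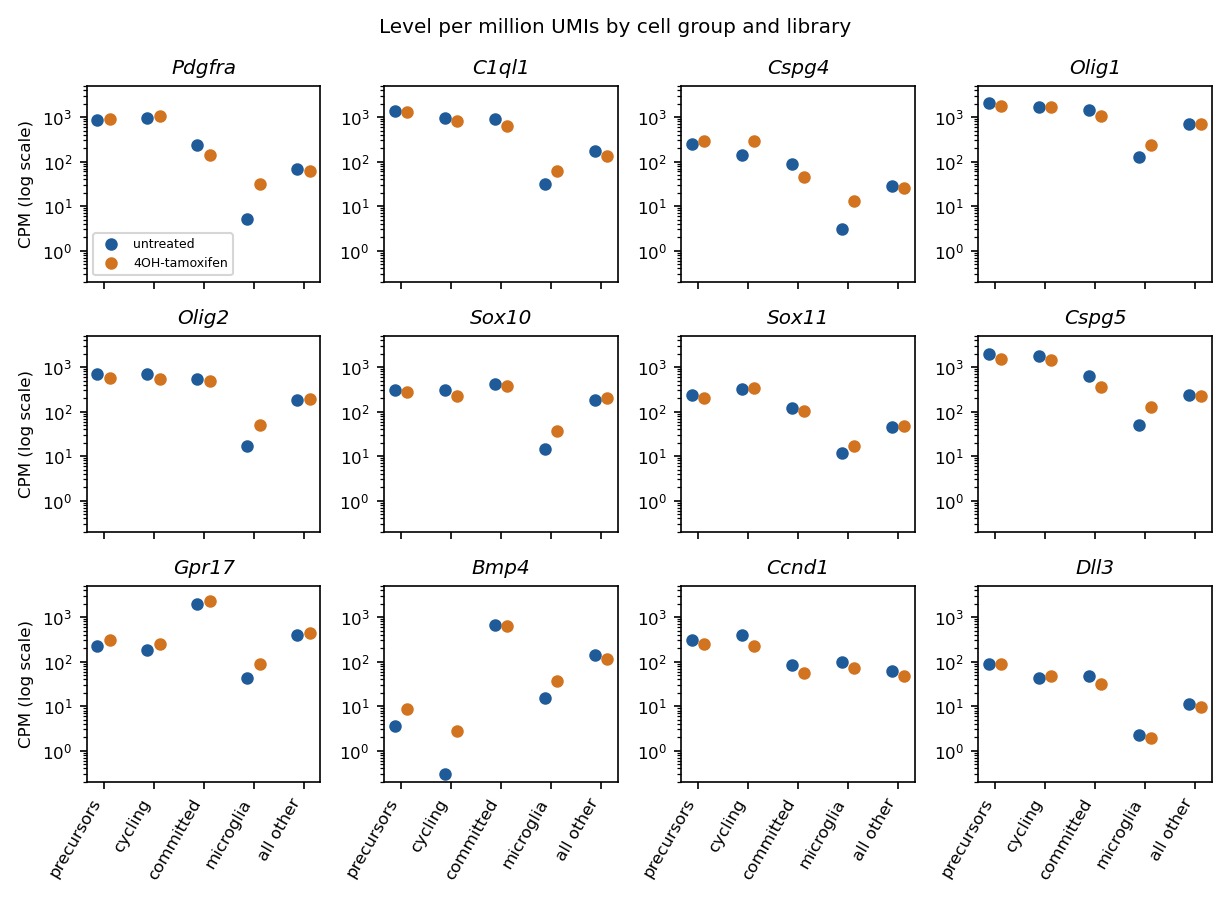
Levels of 12 genes (CPM of summed UMIs, log axis) in precursors, cycling precursors, committed precursors, microglia and all other kept cells, 1 point per library (blue untreated, orange 4OH-tamoxifen), with the level at 0 UMIs (*Bmp4* in untreated cycling precursors) drawn at the bottom of the axis. *Pdgfra*, *C1ql1* and *Cspg4* chose the cells, and *Sox11*, *Cspg5* and *Ccnd1* lie highest in precursors and cycling precursors, while *Gpr17* and *Bmp4* peak in committed precursors.

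Promoters are shown to place sequence beside these genes: that of *Pdgfra*, the receptor gene used to choose the cells, and those of *Dll3*, of the Notch pathway, and *Lhfpl3*, a membrane protein gene, both among the 20 genes with the largest ratio to other cells. The letters come from RefSeq (GRCm38.p6) and cover 250 bases before and 50 bases after the start of transcription, 5′ to 3′ on the gene's strand. Capitals mark CAGCTG, an E-box that reads the same on both strands and is known as a site for helix-loop-helix factors.
Pdgfra, chr5:75152001-75152300, plus strand, 0 copies: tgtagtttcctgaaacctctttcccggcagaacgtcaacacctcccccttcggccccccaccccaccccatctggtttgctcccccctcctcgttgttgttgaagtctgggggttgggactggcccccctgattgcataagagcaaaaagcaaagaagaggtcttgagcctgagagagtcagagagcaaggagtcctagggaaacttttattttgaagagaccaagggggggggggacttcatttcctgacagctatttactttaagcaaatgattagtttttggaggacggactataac
Dll3, chr7:28301736-28302035, minus strand, 1 copy: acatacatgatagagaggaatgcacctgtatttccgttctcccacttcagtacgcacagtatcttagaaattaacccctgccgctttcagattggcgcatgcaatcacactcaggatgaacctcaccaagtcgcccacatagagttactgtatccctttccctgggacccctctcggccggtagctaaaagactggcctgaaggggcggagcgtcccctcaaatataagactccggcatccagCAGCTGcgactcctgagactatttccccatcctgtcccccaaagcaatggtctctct
Lhfpl3, chr5:22745804-22746103, plus strand, 2 copies: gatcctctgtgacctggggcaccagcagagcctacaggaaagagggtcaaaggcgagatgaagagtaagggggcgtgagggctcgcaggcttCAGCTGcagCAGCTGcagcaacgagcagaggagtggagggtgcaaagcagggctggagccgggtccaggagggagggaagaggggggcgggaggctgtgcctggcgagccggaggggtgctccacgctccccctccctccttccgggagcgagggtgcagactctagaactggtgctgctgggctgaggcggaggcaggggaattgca
CAGCTG was found in 16.3% of 32851 promoter windows of this length and in at least 1 window of 18.3% of 27025 genes. Of the 20 genes, 15 had a window, and 7 of these held the motif: *Emid1*, *Dll3*, *Lmcd1*, *Pcdh15*, *Iqgap2*, *Lhfpl3* and *Ppp1r14b*. The windows of *Pdgfra*, *Slc22a3*, *Gsx1*, *Cspg4*, *Sapcd2*, *Tmem255b*, *Chst5* and *Rlbp1* did not hold these letters. The windows of *C1ql1*, *Cdo1*, *Cspg5* and *Prkg2* were among those not analysed here.

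RNA of other cell types was present in some of the cells that met the definition. UMIs of the astrocyte genes *Aqp4*, *Gja1*, *Gfap* and *Agt* reached 8 or more in 24 untreated and 45 4OH-tamoxifen precursors. UMIs of 10 pericyte markers reached 5 or more in 11 and 11 cells, and UMIs of 15 neuron markers 12 or more in 6 and 10. Together these were 41 cells (15.6%) and 62 cells (7.58%). The cells past the pericyte limit held 94.1% and 77.4% of all pericyte-marker UMIs of precursors, those past the astrocyte limit 73.4% and 46.2% of the UMIs of the 4 astrocyte genes, and those past the neuron limit 18.7% and 9.06% of the neuron-marker UMIs. The remaining 221 and 756 cells are called precursors with few markers of other types, and *Olig1* was found in 100% and 95.2% of them. These limits were set after the data were seen. They changed some calls on list members, and the values in precursors with few markers are given for named genes whose call was lost, except for markers that the limits themselves removed. Microglial and endothelial markers were low: 162 and 205 CPM summed over 10 microglial markers against 26347 and 19516 CPM in microglia, and 105 and 90.4 CPM over 10 endothelial markers.

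**Figure D2:**
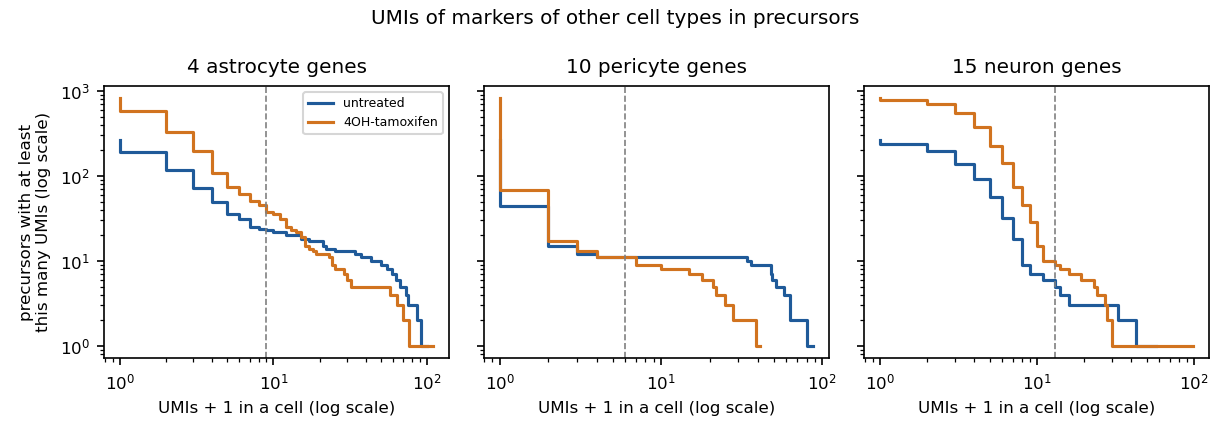
Number of precursors (log axis) with at least a given number of UMIs of 4 astrocyte genes, 10 pericyte genes or 15 neuron genes (UMIs plus 1, log axis), blue untreated and orange 4OH-tamoxifen. Dashed lines mark 8, 5 and 12 UMIs, past which lie 24 and 45, 11 and 11, and 6 and 10 cells.

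Compared with all other kept cells, which include the cycling and committed precursors, 7242 genes had at least 20 CPM in either group in each library. Of these, 385 (5.32%) were at least 2-fold higher in precursors in both libraries and 577 (7.97%) at least 2-fold lower. The median log2 ratio over all of them was 0.13 and 0.07 in the 2 libraries. After the definition's own *Pdgfra* (12.8 and 14.8 times the other cells), the highest ratios, ranked by the smaller of the libraries' values, belonged to *Slc22a3*, *Gsx1* and another gene of the definition, *Cspg4*. *Slc22a3*, an organic cation transporter, was at 23.3 and 36.8 CPM in precursors and at 11.4 and 13.3 times the level of the other cells. *Gsx1*, a homeobox factor of progenitors in the ventricular zone, was at 31.9 and 23.1 CPM and at 10.8 times the other cells in both libraries. The other named genes in this group were *Cspg4*, *Sapcd2*, *C1ql1*, *Tmem255b*, *Emid1*, *Cdo1*, *Dll3*, *Lmcd1*, *Pcdh15*, *Iqgap2*, *Cspg5*, *Chst5*, *Lhfpl3*, *Ppp1r14b*, *Rlbp1* and *Prkg2*, with ratios between 6.13 for *Prkg2* and 11.5 for *Cspg4*.

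Of 30 precursor markers outside the definition, 22 were at least 2-fold higher in both libraries and 0 lower (median log2 ratio 1.73). They include *Pcdh15*, a protocadherin (305 and 279 CPM, 7.96 and 6.82 times the other cells), *Cacng4*, an auxiliary subunit of AMPA receptors (476 and 438 CPM, 6.82 and 5.88 times) and *Ptprz1*, a receptor phosphatase that binds matrix (1552 and 1383 CPM, 4.31 and 4.19 times). The other cells held cycling and committed precursors too. Against cycling precursors 0 of the 30 passed the limit in either direction. Against committed precursors 5 were higher, *Pcdh15* among them, and 1 lower, *Tnr*. *Cacng4* and *Ptprz1* were not past the limit against either group, so they do not set precursors apart from these. Among 34 lineage transcription factors with enough UMIs, 12 were higher than in all other kept cells and 4 lower. *Sox11*, a factor of immature cells, was at 239 and 205 CPM and 5.32 and 4.20 times the other cells. *Sox5* and *Sox6*, which hold precursors back from early differentiation, were 3.96 and 3.61, and 3.06 and 3.33 times as high. *Sox10*, which all stages of the lineage share, was below the fold limit at 1.72 and 1.36 times. The 4 lower genes were *Myrf*, the factor that starts myelin gene expression (11 and 19.3 CPM, 10.7 and 7.87 times lower), *Nkx6-2*, *Zfp365* and *Id1*.

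Among 14 growth factor receptors, *Kit* and the definition's own *Pdgfra* were higher and *Erbb3*, *Fgfr2* and *Tyro3* lower. *Kit*, the stem cell factor receptor, was at 35.5 and 24.9 CPM, 4.33 and 2.88 times the other cells. Of 21 feedback genes and effectors of growth factor signalling, 7 were higher (median log2 ratio 0.47): the cyclin *Ccnd1*, the inhibitors *Spry1*, *Spry2* and *Spry4*, the ETS factors *Etv4* and *Etv5*, and the early gene *Egr1*. In precursors with few markers of other types *Spry2* was at 1.86 and 2.11 times the other cells, no longer past the limit in both libraries. *Ccnd1*, which carries growth factor signals into the cell cycle, was at 310 and 245 CPM, 5.11 and 5.15 times the other cells. *Spry1*, a feedback inhibitor of receptor tyrosine kinases, was at 102 and 56.1 CPM, 5.87 and 4.27 times. *Mapk3*, a kinase of the same pathway, was lower by 4.87 and 3.95 times (50.3 and 65.4 CPM).

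Of 16 genes of the Notch, Wnt and BMP pathways, 4 were higher and 1 lower (median log2 ratio 0.59). *Dll3*, a ligand-like protein that blocks Notch within the cell and whose promoter is printed above, was at 87.0 and 87.2 CPM, 7.83 and 9.04 times the other cells. *Dll1*, a Notch ligand, was at 45.4 and 21.8 CPM, 11.7 and 5.63 times. *Bmp7* was 4.87 times as high in both libraries and the secreted Wnt modulator *Sfrp1* 3.54 and 2.76 times. *Hes5*, a target of Notch, was 3.80 times the other cells in the untreated library and 1.93 times in the 4OH-tamoxifen library, and *Hes1* 0.638 and 0.617 times.

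Glutamate receptors and ion channels let these cells respond to neurons. Among 20 genes of glutamate receptors and their auxiliary subunits, 6 were higher and 1 lower (median log2 ratio 0.77). *Cacng4* led, followed by *Neto1*, an auxiliary subunit of kainate receptors (29.4 and 31.2 CPM, 6.36 and 4.75 times the other cells). *Grin3a*, an NMDA receptor subunit, was at 173 and 193 CPM, 4.15 and 3.41 times. *Gria3* and *Grm5* were 3.07 and 2.80, and 2.84 and 2.60 times as high, and *Neto2* 2.2 and 2.33 times. *Gria2*, which makes AMPA receptors impermeable to calcium, was at 445 and 495 CPM and below the fold limit at 1.74 and 1.68 times. Of 10 genes of GABA and glycine receptors 1 was higher and 0 lower (median log2 ratio 0.26). Of 32 voltage-gated and leak channels 7 were higher and 2 lower. They include the A-type potassium channel genes *Kcnd3* and *Kcnd2* and their partner *Kcnip3* (367 and 375 CPM, 4.59 and 4.90 times), the leak channel *Kcnk2*, *Cacna1d*, *Scn3a* and *Scn3b*, while *Kcna1* and *Hcn2* were lower. *Cacna1d* fell under the minimum level in precursors with few markers of other types (18.2 and 27.5 CPM). Of 23 G protein-coupled and guidance receptors, 3 were higher (*Lingo1*, *Adgrl3* and *Robo1*) and 8 lower.

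Matrix and adhesion genes included many above the limit. Of 33 matrix and proteoglycan genes, 15 were higher, the definition's own *Cspg4* included, and 4 lower (median log2 ratio 0.87). The higher genes include *Cspg5* (2025 and 1489 CPM, 8.37 and 6.72 times the other cells), *Xylt1*, an enzyme that starts proteoglycan chains (239 and 294 CPM, 6.13 and 6.36 times), *Matn4*, *Smoc1*, *Sdc3* and *Vcan*. Of 36 genes of synaptic adhesion and secreted organizers, 15 were higher, the definition's own *C1ql1* included, and 2 lower (median log2 ratio 0.98). Its relatives *C1ql2* (94.4 and 78.5 CPM, 5.71 and 7.41 times) and *C1ql3* (95.6 and 161 CPM, 3.47 and 5.17 times) were higher, as were *Lrrtm3* and *Nlgn1*. The axon and node adhesion genes *Nfasc* and *Cntnap2* were lower.

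Hox genes, which set position along the body axis, were found at low counts. Of 12 Hox genes of paralogue groups 1 to 4, which pattern the hindbrain, 10 had at least 1 UMI in either library, and their sum was 44 and 84 UMIs (53.9 and 52.3 CPM, 1.34 and 1.53 times the other cells, counting intervals 0.967 to 1.83 and 1.21 to 1.91). Microglia held 6.74 and 16.9 CPM of the 26 Hox genes searched. All 14 Hox genes of groups 5 to 9, which are used in the spinal cord, had 0 UMIs in both libraries, which allows up to 3.68 and 1.87 CPM. The other cells held 0.185 and 1.35 CPM of them, less than this limit, so the zeros do not set precursors apart. *Hoxa2* was at 15.9 and 12.5 CPM and *Hoxb2* at 14.7 and 16.8 CPM. Of 29 further position genes, 11 were at 0 in both libraries, the forebrain genes *Emx2*, *Lhx2*, *Dlx1*, *Dlx2* and *Six3* among them. The Iroquois genes stood above the other cells: *Irx1* was at 74.8 and 45.5 CPM, 8.65 and 5.95 times as high, and *Irx2*, *Irx3* and *Irx5* between 3.04 and 5.20 times.

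Genes of later stages were low. Of 35 differentiation genes outside the definition 20 were lower and 0 higher (median log2 ratio -1.73), and of 15 myelinating markers 13 were lower. *Enpp6*, which marks newly formed oligodendrocytes, was at 7.35 and 12.5 CPM, 23.5 and 14.7 times below the other cells. *Mbp* was at 11646 and 16367 CPM, and microglia, which do not make myelin, held 9113 and 12701 CPM. The difference between precursors and this background was therefore small for *Mbp*, and its UMIs in precursors cannot be read as expression. Of 26 cholesterol genes 9 were lower and 0 higher, among them *Hmgcs1* (291 and 228 CPM, 2.54 and 3.60 times lower). Among markers of other types, 10 of 10 microglial, 8 of 8 endothelial, 5 of 6 fibroblast and 4 of 12 neuron genes were lower. The astrocyte list (15 genes) and the pericyte list (6 genes) had 0 past the limit in either direction.

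**Figure D3:**
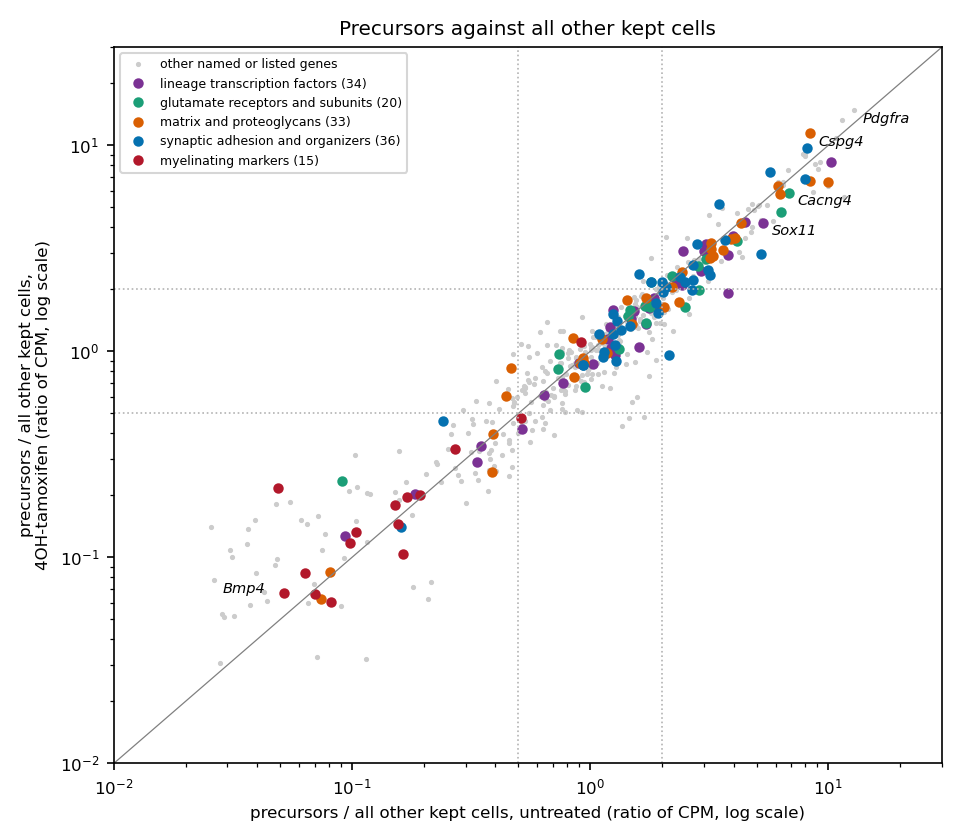
Ratio of CPM in precursors to all other kept cells in the untreated (x) and the 4OH-tamoxifen library (y), both on log axes, 1 point per gene with enough UMIs, coloured by role, with the number of genes in brackets. Dotted lines mark a ratio of 2 and its inverse, and matrix, adhesion and glutamate receptor genes lie mostly above 1 in both libraries and myelinating markers mostly below.

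The cycling precursors met the same definition except for 2 or more UMIs of the 4 cycle genes, so the comparison asks what else goes with these genes. Of 7192 genes, 58 (0.806%) were at least 2-fold higher in non-cycling precursors in both libraries and 357 (4.96%) at least 2-fold lower. Of 29 cell cycle genes outside the definition 26 were lower and 0 higher (median log2 ratio -2.30). *Hmmr*, a protein of the mitotic spindle, was at 2.45 and 1.87 CPM in non-cycling and 165 and 157 CPM in cycling precursors. *Aurkb* and *Ndc80*, of the chromosome passenger complex and the kinetochore, were at 1.23 and 0.623 CPM each in non-cycling precursors against 71.9 and 96.5 CPM and 71.9 and 63.4 CPM. *Hmgb2* was 11.7 and 12.4 times lower, the replication clamp gene *Pcna* 2.74 and 3.97 times, and *Stmn1* 4.46 and 3.57 times. *Shcbp1*, *Neil3*, *Sgol1* and *Hist1h1b* also ranked among the 10 largest differences, with the definition's own *Cdk1*, *Mki67* and *Hist1h2ap*.

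Of 16 G1 cyclins, their kinases and inhibitors, 6 were lower in non-cycling precursors. *Cdkn2c*, an inhibitor of CDK4 and CDK6, was at 17.2 and 18.1 CPM against 287 and 215 CPM, 16.7 and 11.9 times lower. *Ccne1* and *Ccne2*, the cyclins of entry into S phase, were 3.35 and 3.93, and 4.19 and 5.41 times lower. *Ccne1* turned to 1.17 times the cycling level in the untreated library when at least 5 UMIs of the 3 precursor genes were asked for. The D cyclins were not among them: *Ccnd1* was at 0.771 and 1.10 times the cycling level and *Ccnd2* at 0.578 and 0.795 times. Of the 30 precursor markers outside the definition 0 passed the limit in either direction (median log2 ratio 0.13). Of 34 lineage transcription factors 1 was higher and 0 lower: *Id4*, an inhibitor of helix-loop-helix factors, at 2.30 (0.579 to 20) and 2.56 (0.806 to 13) times the cycling level, and at 0.528 and 1.62 times in precursors with few markers of other types. Both groups had to hold at least 3 UMIs of *Pdgfra*, *C1ql1* and *Cspg4*, so their levels are not compared here. Glutamate receptors, channels, matrix, adhesion, growth factor receptor and feedback lists also had 0 members past the limit.

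Few genes were higher in non-cycling cells. *Tcp11l2* was at 39.2 and 43.6 CPM against 7.19 and 8.27 CPM, 5.46 (0.912 to 222) and 5.27 (1.73 to 26.2) times as high, and *Xbp1*, a factor of the secretory stress response, 2.46 and 3.84 times. *Snhg11*, *Tufm*, *Comtd1*, *Msto1* and *Barx2* were also among the 10 largest. *Myoc*, *S100a11* and *Gjb6* were among them too, but in precursors with few markers of other types *Myoc* was at 0.211 and *S100a11* at 0.633 times the cycling level in the untreated library. *Gjb6* was at 1.48 and 2.09 times and *Snhg11* at 1.64 and 1.77 times there, and *Msto1* fell under the minimum level (18.2 and 21.2 CPM). The cycling group holds 139174 and 362675 UMIs, so ratios to it are less precise than the others.

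The limit of at most 1 cycle UMI left some cells with other division genes. Of the precursors, 12 (4.58%) and 24 (2.93%) had 3 or more UMIs of 11 further mitotic genes, against 70.3% and 71.7% of cycling precursors, and 4.17% and 9.42% of microglia. UMIs of 12 S phase genes reached 3 in 27 (10.3%) and 47 (5.75%) precursors, in 62.2% and 43.4% of cycling precursors and in 11.5% and 6.11% of microglia. Committed precursors had 2.11% and 0.652% with mitotic and 2.89% and 1.12% with S phase UMIs. The shares of precursors thus lay well below those of cycling cells and above those of committed cells. Microglia held 2546 and 2945 CPM of the cell cycle list, so they are no background for these genes.

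Against committed precursors, which the definition separated by *Gpr17*, *Bmp4* and *Neu4*, 6849 genes could be compared. Of these, 211 (3.08%) were at least 2-fold higher in precursors in both libraries and 209 (3.05%) at least 2-fold lower. The genes of the definition were higher by the choice of the cells, and by different amounts. *Pdgfra* was 3.69 and 6.4 times the committed level (231 and 144 CPM) and *Cspg4* 2.78 and 6.4 times, whereas *C1ql1* was only 1.53 and 2.09 times, *Olig1* 1.40 and 1.62 times and *Sox10* 0.755 and 0.751 times. *Cspg5* was at 645 and 363 CPM in committed cells, 3.14 and 4.10 times below precursors.

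Of 21 growth factor feedback genes and effectors, 9 were above the limit and 0 below (median log2 ratio 1.00, against -0.02 in both libraries over all genes). *Spry1* was at 102 and 56.1 CPM in precursors and 23.1 and 9.01 CPM in committed cells, 4.40 (2.96 to 6.68) and 6.23 (3.93 to 10.2) times as high. *Ccnd1* was at 3.63 and 4.50 times, and *Dusp6*, a phosphatase that ends ERK signals, at 4.05 and 3.81 times the committed level. *Etv4*, *Etv5*, *Spry2*, *Spry4*, *Spred2* and *Phlda1* were the others. Of 10 growth factor receptors, 3 were higher and 0 lower: the definition's own *Pdgfra*, *Kit* (3.80 and 6.04 times) and *Fgfr1* (2.32 and 3.08 times). *Fgfr1* was at 1.47 and 2.64 times in precursors with few markers of other types and lost its call. The cell cycle genes *Ccnd2* and *Cdk6* were higher by 2.82 and 3.57, and 2.82 and 5.76 times, while the inhibitor *Cdkn1c* was at 0.473 and 0.484 times, and at 0.521 and 0.519 times, short of the limit, in precursors with few markers.

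Of 34 lineage transcription factors, 7 were higher and 5 lower than in committed cells. *Id2*, *Id4* and *Hes1*, helix-loop-helix inhibitors, were 2.72 and 2.32, 5.30 and 3.32, and 3.24 and 2.87 times the committed level. In precursors with few markers of other types *Hes1* was at 1.94 and 2.60 times and *Id4* at 1.21 and 2.1 times, and both lost their call. Of 8 position genes, 5 were higher: *Irx1*, *Irx2*, *Irx5*, *Meis1* and *Meis2*, by 2.05 to 3.35 times. *Meis1* (1.89 and 1.99 times) and *Meis2* (2.13 and 1.98 times) lost their call in precursors with few markers, while *Irx3* gained one (2.00 and 2.04 times). *Neto1*, *Grin3a* and *Grm5* were higher among 19 glutamate receptor genes, 4 genes among 29 channels (*Kcnip3*, *Scn3b* and *Kcnk2* among them), and *C1ql2* and *Pcdh15* among 35 adhesion genes. The other genes among the 10 largest were the definition's own *Top2a*, and *Celf3*, *Mcm5*, *Adamts1*, *Fam212b*, *Sez6*, *Nek6* and *Nbl1*. *Nbl1* was at 1.78 and 3.65 times in precursors with few markers and lost its call. *Vtn*, a pericyte gene, ranked highest (213 and 39.9 CPM against 31.2 and 3.75 CPM), but in precursors with few markers of other types, chosen partly on this gene, it was at 0.486 times the committed level in the untreated library.

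Of 34 differentiation genes 22 were lower and 0 higher (median log2 ratio -1.34), and 19 of 33 were lower in precursors with few markers. *Enpp6* was at 291 and 329 CPM in committed cells, 39.6 and 26.4 times above precursors. *Fyn*, a kinase that links axon contact to myelin, was at 322 CPM in the precursors of both libraries and at 1681 and 1780 CPM in committed cells. *Bcas1* was 4.78 and 3.65 times lower, *Mycl* 8.51 and 5.84 times and *Myrf* 10.4 and 7.30 times. *Nkx2-2* (4.19 and 2.71 times) and *Tcf7l2* (3.07 and 3.69 times) were lower among transcription factors, and the perineuronal matrix gene *Tnr* (2.92 and 3.54 times) and *Col9a3* among matrix genes. *Epcam*, *Col2a1*, *Gp1bb*, *Srpk3*, *Plxnb3*, *St18* and *Cpm* were among the 10 largest, with *Epcam* at 3.68 and 4.36 CPM in precursors and 106 and 118 CPM in committed cells.

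**Figure D4:**
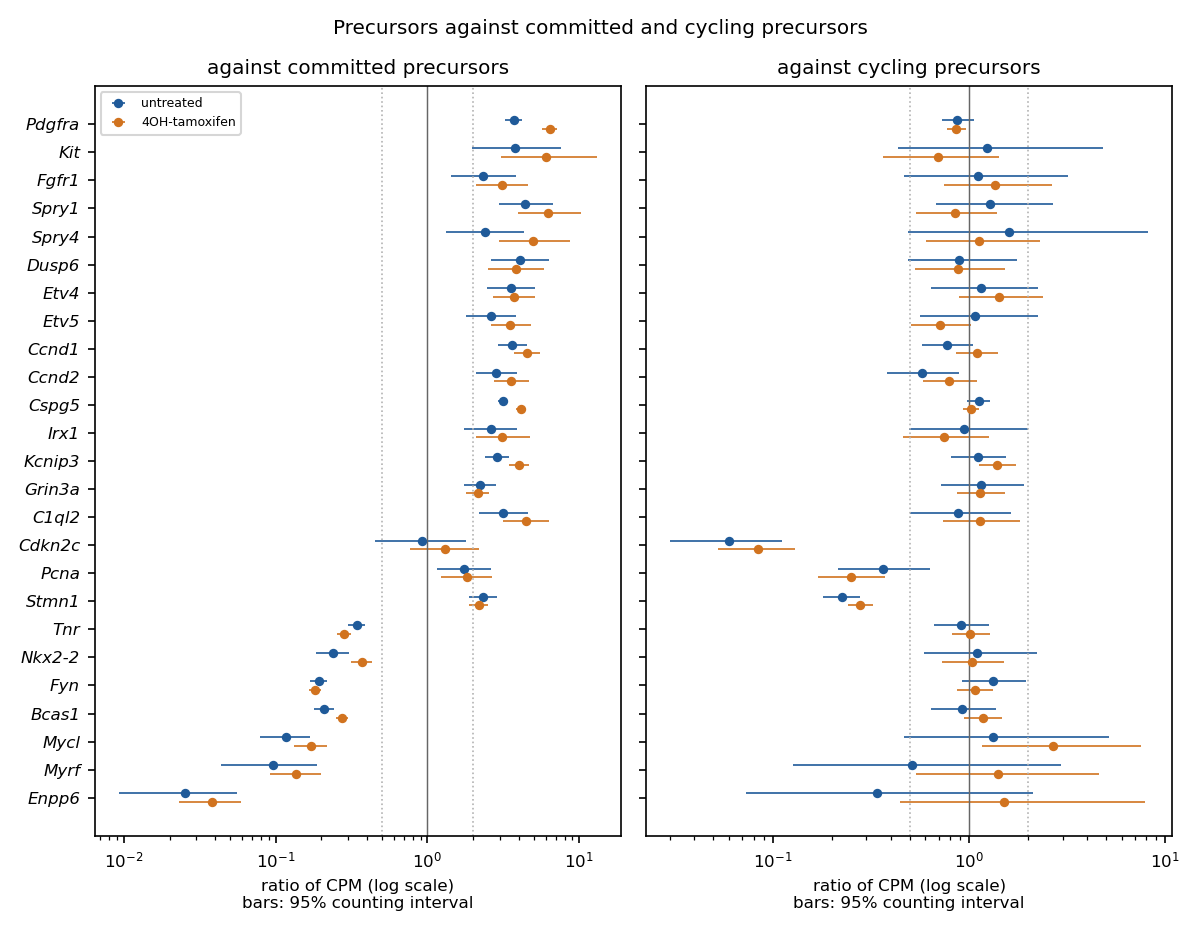
Ratio of CPM in precursors to committed precursors (left) and to cycling precursors (right) for 25 genes, blue untreated and orange 4OH-tamoxifen, on log axes with exact 95% counting intervals and dotted lines at a ratio of 2 and its inverse. Feedback genes lie above 1 against committed cells and near 1 against cycling cells, and *Cdkn2c*, *Pcna* and *Stmn1* lie below 1 against cycling cells.

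The definition lets precursors carry up to 2 UMIs of the committed genes, and 63.0% and 59.4% carried 1 or 2. Among precursors with few markers of other types, those with 1 or 2 such UMIs (151 and 450 cells) and those with 0 (70 and 306 cells) were compared over 22 genes. The sum of the precursor list was 1.03 and 1.02 times as high in the former. Among genes of differentiation, *Mycl* was at 1.87 (0.747 to 5.56) and 1.83 (1.03 to 3.40) times and *Fyn* at 1.13 (0.843 to 1.53) and 1.46 (1.19 to 1.79) times.

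Between the libraries, 7483 genes had at least 20 CPM in the precursors of either. Of these, 110 (1.47%) were at least 2-fold higher in the 4OH-tamoxifen library and 203 (2.71%) at least 2-fold lower, with a median log2 ratio of -0.08. With ratios divided by that of the median gene, 143 were higher and 156 lower, so the excess of lower genes was mostly lost. The counting interval of the ratio lay clear of 1 for 100 and 202 of them. Such a count has no replicate behind it. All other kept cells gave the same direction for 99 and 170 of these genes, and passed the 2-fold limit in it for 10 and 21. Of all 7352 genes compared in those cells, only 39 were past that limit higher and 129 lower. Among precursors with few markers of other types 160 genes were higher and 213 lower, and 83 and 124 of the genes above were called there too.

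Of the 30 precursor markers outside the definition 0 passed the limit in either direction (median log2 ratio -0.16), and *Olig1* was at 0.851 times the untreated level. In precursors with few markers of other types *Rlbp1* passed it, at 0.492 against 0.535 times in all precursors. The genes of the definition had the same minimum in both libraries and are not compared here. Further lists had 0 members past the limit: 7 estrogen-responsive genes, 9 glucocorticoid-responsive genes, 24 cholesterol genes and 8 hypoxia genes. Over all genes only 1.47% were past it higher and 2.71% lower, so zeros in lists this short do not set them apart. In precursors with few markers 3 of these genes passed it, *Nrip1* (2.23 times, 1.87 in all precursors), *Mt2* (2.21 and 1.70 times) and *Fdps* (0.483 and 0.508 times). The cholesterol list summed to 0.787 (0.737 to 0.840) times the untreated CPM, against 1.00 times in all other cells and 1.14 times in microglia. The glucocorticoid-responsive list summed to 2645 and 4110 CPM, a ratio of 1.55 (1.48 to 1.63). That ratio was 1.75 in precursors with few markers, 1.48 in all other cells and 1.45 in microglia. Most of this sum came from its member *Mt1*, given below, and the median log2 ratio of the 9 genes compared was 0.27. *Esr1* had 1 and 2 UMIs over all precursors and *Esr2* 0 and 0, which allows up to 3.68 and 1.87 CPM. The metallothionein *Mt1* was at 1673 and 2780 CPM, a ratio of 1.66, with 1.69 in all other cells and 1.97 in microglia.

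Of 16 immediate early genes, 7 were lower in precursors and 0 higher: *Fos*, *Jun*, *Junb*, *Egr1*, *Ier2*, *Btg2* and *Socs3*. *Fos*, a factor that a stimulus or tissue dissociation turns on within minutes, was at 281 and 116 CPM, 0.413 (0.338 to 0.503) times, and at 0.390 times in all other cells and 0.577 times in microglia. *Egr1* was at 330 and 113 CPM, 0.344 times, against 0.336 and 0.456 times. Thinned to 2000 UMIs, 40.9% of untreated and 17.9% of 4OH-tamoxifen precursors held *Fos*, and 61.6% and 47.8% of microglia. The whole list summed to 3572 and 2278 CPM in precursors, a ratio of 0.638, with 0.670 in all other cells and 0.605 in microglia. The part of handling in this gap was not tested.

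*Hes5* and *Dll1*, of the Notch pathway, were lower in precursors, by more than in other cells. *Hes5* was at 94.4 and 34.3 CPM, 0.363 (0.252 to 0.520) times, and at 0.715 times in all other cells, 0.859 times in committed precursors and 1.54 times in microglia. *Dll1* was at 45.4 and 21.8 CPM, 0.481 (0.294 to 0.785) times, and 0.996 times in all other cells. Thinned to 2000 UMIs, *Hes5* was found in 12.2% and 2.24% of precursors and in 0.984% and 2.1% of microglia. In precursors with few markers of other types the ratios of *Hes5* and *Dll1* were 0.358 and 0.465. With 1 library each, whether these gaps exceed the spread between mice is not known.

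Many of the largest ratios belonged to genes of neurons, pericytes and vessels. *Prph*, *Pcp4*, *Sncg*, *Nefh*, *Nefm* and *Tubb3*, genes of neurons, were 2.31 to 3.41 times as high in the 4OH-tamoxifen library, as were *Synrg*, *Disp2*, *Herc2* and *Rab6b*, by 2.16 to 2.60 times. *Herc2* was at 1.96 times in precursors with few markers. The sum of the 15 neuron markers was 1.75 times as high in precursors, 1.90 times in those with few markers, 1.90 times in all other cells and 2.53 times in microglia, in which it stood at 470 and 1190 CPM. *Myl9*, *Higd1b*, *Vtn*, *Ndufa4l2*, *Igfbp7* and *Rgs5*, genes of pericytes and vessels, were at 0.156 to 0.293 times the untreated level. All 8 pericyte markers compared were lower. Their sum was 793 and 179 CPM, a ratio of 0.226, with 0.493 in all other cells, 0.299 in committed precursors and 0.821 in microglia. In precursors with few markers of other types, from which the limit itself removed pericyte UMIs, it was 44.0 and 38.8 CPM, a ratio of 0.882, and *Rgs5* was at 2.33 times. *Myoc* was at 0.171 times in all precursors and 0.930 times in those cells. *Slc16a1*, a lactate transporter, and *Tmem115*, also among the 10 lowest, kept their gaps there, with ratios of 0.311 and 0.333 in all precursors and 0.390 and 0.317 in those with few markers.

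The libraries also differed in how much precursor RNA lay in other cells. *Pdgfra* was at 5.24 and 31.8 CPM in microglia, *Cspg5* at 50.9 and 124 CPM and the 30 precursor markers summed to 1651 and 2320 CPM, against 14446 and 12710 CPM in precursors. Microglia of the 4OH-tamoxifen library thus held more of this RNA, and its part in the gaps between libraries was not tested.

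**Figure D5:**
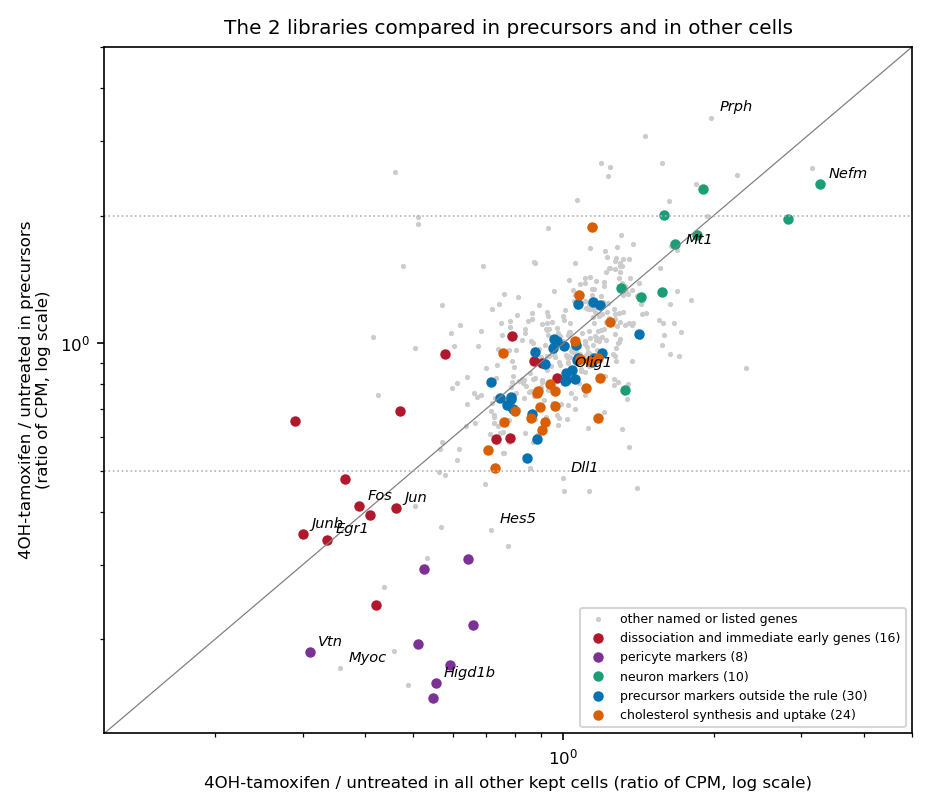
Ratio of CPM in the 4OH-tamoxifen to the untreated library in all other kept cells (x) and in precursors (y), log axes, 1 point per gene with enough UMIs, coloured by list with the number of genes in brackets dotted lines at a ratio of 2 and its inverse in precursors and a solid line where both ratios are equal. Immediate early genes lie mostly below 1 on both axes, all 8 pericyte markers lie below the lower dotted line, neuron markers mostly lie above 1 on both axes, and precursor and cholesterol genes lie between the dotted lines.

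Variation among precursors was measured as the variance over the mean of UMIs after each cell was thinned to 2000 UMIs, which is near 1 for counting noise alone. With 237 and 268 cells deep enough and 5388 genes, 36 genes had a value of at least 2 in both libraries. Among precursors with few markers of other types (199 and 218 cells) there were 17. *Gfap* was at 12.8 and 13.0 over all precursors and is among the genes used to set the latter apart. *Meg3*, an RNA abundant in neurons, was at 18.6 and 63.4 over all precursors and at 1.55 and 1.54 in those with few markers. *Snhg11* was at 9.44 and 19.5, and at 1.14 and 0.970 in those cells. *Aqp4*, *Vtn*, *Rgs5* and *Myoc*, genes of astrocytes and vessels, were also among the 15 highest named genes. The ranking took the smaller value of the libraries and left out mitochondrial genes. Other genes kept their spread. *Mbp* was at 11.9 and 11.7, and 12.2 and 12.3 in cells with few markers. *Actb* was at 6.09 and 10.4, and 5.91 and 10.8 in those cells. Microglia also held *Mbp* RNA, so its spread cannot be read as variable expression among precursors. *Apoe*, *Malat1*, *Mt1*, *Cst3* and *Xist* were also among the 15, and *Apoe* ranked 7 in cells with few markers. Only the female cells of these mixed pools should make *Xist*, which was found in 40.5% and 30.6%. *Olig1* was at 1.55 and 1.48. The spread of *Pdgfra*, *C1ql1* and *Cspg4* is limited by the minimum that chose the cells and is not given.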

How the data were processed

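Single-cell RNA was sequenced on the 10x Genomics platform from pooled mouse tissue. The authors deposited 1 matrix of UMI counts per library (28692 gene rows), made per the submitters' processing notes with bcl2fastq 2.18.0.12 and Cell Ranger 2.2.0 on mm10. They hold whole molecule counts after collapse of duplicate reads, not normalised. The libraries held 3767 and 10241 barcodes with 18496942 and 34704167 UMIs, of which 3345 and 9050 barcodes were kept.

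UMIs were summed over the cells of each group and given as CPM. A gene was compared where either group had at least 20 CPM in each library (between libraries, in either), and called at 2-fold or more in both libraries in the same direction. A group at 0 UMIs was set to 3 UMIs. Intervals (95%) were exact Poisson for levels, Clopper-Pearson for shares and exact conditional for ratios, and cover counting error only. Each condition had 1 library, so no p-value was computed. List medians are over the mean of both libraries' log2 ratios. The scripts were tested on simulated data.

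The members and the 28 gene lists were chosen with earlier results of these data known. The text names the genes of the definition, list members by role, the 20 genes with the largest ratio to other cells (the smaller of the libraries' ratios, at least 20 CPM in both), the 10 largest in each direction against cycling and committed precursors (again by the smaller ratio) and between libraries (at least 50 CPM in the higher and 20 UMIs in the lower), and the 15 with the largest variance over mean (by the smaller value, mean of at least 0.05 UMIs), leaving out mitochondrial, ribosomal protein and hemoglobin genes and unnamed transcripts. Some genes are not reported here. Doublets were limited only by the markers of other types in the definition, and Scrublet, which marked 1.14% and 5.19% of barcodes, was run as an alternative. Other alternatives changed depth, limits, folds and scaling. Gene positions are from GENCODE vM21 (GRCm38). Python 3.11.15, numpy 2.4.6, pandas 2.3.3, scipy 1.17.1, scanpy 1.11.5 and matplotlib 3.10.9 were used.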

Additional observations from a re-analysis of the deposited data

Results flagged for a closer look

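For 7 genes the ratio of precursors to all other kept cells lay on opposite sides of 1 in the untreated and the 4OH-tamoxifen library, with both counting intervals clear of 1. The difference between the libraries was not tested, since each condition has 1 library. Genes of pericytes and vessels were above the other cells in untreated precursors and below them in the other library: *Myl9* was at 1.36 and 0.435 times, *Ndufa4l2* at 1.57 and 0.602 times, *Higd1b* at 1.68 and 0.478 times and *Pdgfrb* at 1.45 and 0.477 times. The pericyte markers summed to 793 and 179 CPM in precursors and to 44.0 and 38.8 CPM in those with few markers of other types. The neurofilament gene *Nefl* was at 1.14 and 0.793 times, and *Synrg* at 0.660 and 1.38 times. *Mbp*, whose RNA was also found in microglia, was at 0.917 and 1.11 times.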

How the results depend on the processing

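No paired analysis was possible because each condition has 1 library. Over 13 main results and their alternatives, 160 of 230 values stayed within the limits set for no change, 70 moved and 0 reversed, and over 416 single-gene ratios 7652 of 8320 values stayed, 659 moved and 9 reversed. The cause was not tested, except where an alternative by its construction changes the number of genes or cells counted. Leaving out members with markers of other types, leaving out members with mitotic or S phase UMIs, and dividing by the median ratio were alternatives chosen after seeing the data.

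With ratios divided by the median ratio, 143 genes were higher and 156 lower between libraries (110 and 203). Genes higher than in all other cells (385) numbered 886 at 1.5-fold, 149 at 3-fold, 225 with a 50 CPM minimum, 590 with 5 CPM and 617 without cells holding astrocyte UMIs. Genes lower (577) numbered 954, 318, 313 and 1040 at those folds and minimums. Against committed precursors the higher genes (211) numbered 620, 34, 91 and 452, 140 with 5 CPM added and 453 with the definition applied to thinned cells, and the lower genes (209) 438 and 85 at 1.5-fold and 3-fold. Against cycling precursors the higher genes (58) numbered 282, 6, 10 and 128, 35 with 5 CPM added, 104 with at least 1200 genes per barcode and 99 with at least 5 UMIs of the 3 genes, and the lower genes (357) 682, 219, 192 and 602. Between libraries the higher genes (110) numbered 494, 13, 23 and 514, 45 with 5 CPM added, 286 with 1200 genes, 175 at 10% mitochondrial UMIs, 181 with 5 UMIs, 275 without astrocyte UMIs and 292 on thinned cells. The lower genes (203) numbered 894, 37, 45 and 615, 91 with 5 CPM added, 335 with 1200 genes, 305 with 5 UMIs, 429 without astrocyte UMIs and 322 on thinned cells.

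The 4OH-tamoxifen share (9.04%) was 4.31% with 1200 genes, 11.5% with 2 UMIs, 4.73% with 5 UMIs, 11.5% without astrocyte UMIs, 4.29% on thinned cells, 8.35% with few markers of other types and 8.27% with few mitotic or S phase UMIs. The untreated share (7.83%) was 9.31% at 10% mitochondrial UMIs, 9.33% with 2 UMIs, 6.13% with 5 UMIs, 9.96% without astrocyte UMIs, 6.61% with few markers and 6.76% with few mitotic or S phase UMIs. With 1200 genes, 10% mitochondrial UMIs, 5 UMIs or thinned cells the untreated share was the higher. The share with *Olig1* (93.5% and 94.5%) was 86.2% untreated with 2 UMIs of the 3 genes, 99% with 5 UMIs, 96.4% without stromal UMIs, 97.3% and 97.0% on thinned cells, 100% with few markers, and 88.9% and 81.2% where 2 *Olig1* UMIs were asked for. Variable genes (36) numbered 19 without astrocyte UMIs and 17 with few markers.

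Ratios reversed for *Ccne1* against untreated cycling cells (1.17 with 5 UMIs), for *Rgs5* between libraries (1.71 without stromal UMIs, 2.33 with few markers) and *Myoc* (1.38 without astrocyte UMIs), for *Myoc* (0.113 and 0.211), *Gjb6* (0.848) and *S100a11* (0.633) against untreated cycling cells, and for *Vtn* against untreated committed cells (0.486), in each case without astrocyte UMIs or with few markers. *Id4*, not among those ratios, was at 0.528 times untreated cycling cells with few markers, against 2.30 times in all precursors. Depth limits genes under 3.68 and 1.87 CPM, the levels of 3 UMIs.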
